A study of Mus musculus with 2 samples.

Results

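The 8 genes described here encode the machinery that keeps the glucocorticoid receptor (GR) ready to bind hormone and the enzymes that set how much active hormone reaches it. They were Hsp90aa1 and Hsp90ab1, the co-chaperones Stip1, Ptges3, Fkbp4 and Fkbp5, and the corticosterone-converting enzymes Hsd11b1 and Hsd11b2. They were chosen by gene symbol for these roles and by no measured value, though with earlier results of these data known. All 8 were found among the 27998 gene rows of the count tables. Single-cell RNA-seq counts came from fetal mouse ovaries at E15.5, with 1 library from wild-type embryos (WT, 4 embryos pooled) and 1 library from embryos with a homozygous GR deletion (KO, 2 embryos pooled). The deletion removes exon 3 of Nr3c1, the gene for GR, through a floxed allele recombined by a β-actin Cre, so it is present in every cell type and not in germ cells alone. Both libraries carried the Pou5f1-EGFP transgene, by which GFP-positive germ cells were sorted and then recombined with GFP-negative somatic cells at 60% to 40%. The ratio of germ to somatic cells was therefore set by mixing, and it is not reported as a result.

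GR without hormone is held by HSP90, which receives the receptor from HSP70 through the adaptor encoded by Stip1. Ptges3 encodes p23, which stabilises the mature complex, and the immunophilins FKBP4 and FKBP5 compete for a place on it. FKBP4 links the receptor to transport into the nucleus, while FKBP5 lowers its affinity for hormone and is itself a well-known glucocorticoid-induced gene. Ahead of the receptor, HSD11B1 regenerates active corticosterone and HSD11B2 oxidises it to an inert form, which protects many fetal tissues from maternal hormone.

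After the cell limits of the study, 9045 of 11430 WT barcodes (79.1%) and 15502 of 17829 KO barcodes (86.9%) were kept, with a median of 15685 and 10194.5 transcript counts (unique molecular identifiers, UMIs) per cell. Cells were clustered without the 8 genes, and the 16 clusters were named from marker lists as 8 classes, and the cell types of the study may divide the cells differently. The 4 large classes held 6807 WT and 10211 KO germ-like cells, 920 and 2015 granulosa-like cells, 817 and 1888 theca-like cells, and 400 and 1084 epithelia-like cells. The theca-like name rests on stromal markers such as Pdgfra, Tcf21 and the collagen genes. Of the cell barcodes, 75 occurred in both libraries, and 27 of them were kept in both, 10 in the same class. Nr3c1 was listed at 71.8 counts per 1000000 UMIs of the class (CPM) in WT and 11.6 in KO germ-like cells, a log2 ratio of -2.63 with a 95% counting interval of -2.71 to -2.55. It was also lower in KO in the other 3 large classes, with log2 ratios of -2.11 (granulosa-like), -1.93 (theca-like) and -2.05 (epithelia-like). The counts come from the 3′ end of the transcript and not from exon 3, so they do not test the deletion itself. With 1 library per genotype no comparison has a replicate, cells are not replicates, and every interval given here covers counting error only.

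The pair of HSP90 genes is near in sequence, which matters because the results turn on telling them apart. Their coding sequences matched at 76.6% of 2174 aligned bases. Hsp90aa1 lies at chr12:110690605-110702728 and Hsp90ab1 at chr17:45567775-45573271, both on the minus strand of the mouse genome GRCm38. The last 60 coding bases of each, stop codon included, lie in 1 coding exon at chr12:110691540-110691599 and chr17:45568015-45568074. They are shown as an example of the coding difference, and capitals mark the 14 bases at which the genes differ. On the minus strand the gene intervals run on past these bases, to chr12:110690605 and chr17:45567775. Since 3′ counting reads near the end of the transcript, the letters shown do not test how the counts tell the pair apart.
Hsp90aa1: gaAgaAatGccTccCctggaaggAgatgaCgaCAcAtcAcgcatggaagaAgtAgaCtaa
Hsp90ab1: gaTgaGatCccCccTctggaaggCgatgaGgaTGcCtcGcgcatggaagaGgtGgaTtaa
Between the last 500 bases of the transcripts, no stretch of 31 bases was shared by the pair. For Hsp90ab1, 18.7% of such stretches occurred in 6 other genes, none of which was among the counted genes. For Hsp90aa1 the share was 0.851%, and for the other 6 members it was 0. The other co-chaperones were Stip1 at chr19:7020702-7039967, Ptges3 at chr10:128058954-128077272, Fkbp4 at chr6:128429735-128438677 and Fkbp5 at chr17:28399094-28517527. Hsd11b2 lies at chr8:105518755-105523988. Hsd11b1, at chr1:193221634-193264075, overlaps Lamb3 and 4930570N18Rik on the opposite strand.

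The immunophilin pair diverged more, with 64.6% identity over 1343 aligned coding bases, and moved in different ways among germ cells, as described further on. RefSeq promoter sequence was matched for 5 of the 8 genes. The 250 bases before a RefSeq start of Fkbp4 (chr6:128438657-128438906) and of Fkbp5 (chr17:28486150-28486399) are shown 5′ to 3′ on the minus strand of GRCm38.p6. They set the 2 immunophilin genes side by side. The Fkbp5 start used lies inside the gene interval given above and is not its outermost start, which was not searched. Capitals mark the single match to GAANNTTC, a head-to-head pair of heat shock units, which began 151 bases before the Fkbp4 start.
Fkbp4: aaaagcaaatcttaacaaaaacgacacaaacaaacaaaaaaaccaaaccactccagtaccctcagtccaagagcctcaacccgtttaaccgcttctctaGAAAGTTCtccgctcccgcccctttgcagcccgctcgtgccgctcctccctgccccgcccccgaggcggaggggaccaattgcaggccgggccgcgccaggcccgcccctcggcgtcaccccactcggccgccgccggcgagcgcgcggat
Fkbp5: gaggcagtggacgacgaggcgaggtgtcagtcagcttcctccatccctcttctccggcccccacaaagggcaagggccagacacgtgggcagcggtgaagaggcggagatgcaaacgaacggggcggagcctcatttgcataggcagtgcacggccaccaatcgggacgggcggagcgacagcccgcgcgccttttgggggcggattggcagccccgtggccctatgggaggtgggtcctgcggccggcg
That motif was present in 6.72% of 32536 promoters of this length. Neither promoter held the tail-to-tail form TTCNNGAA, present in 7.19%, or TGTTCT, a short glucocorticoid-response motif present in 16.03%. The CCAAT box occurred once in Fkbp4 and at 2 places in Fkbp5, and in 33.8% of promoters. Both strands were searched, and a match is a description of the letters and not evidence of binding.

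By UMIs, Hsp90aa1 was the predominant transcript of the HSP90 pair in germ-like cells, and Hsp90ab1 was in the large somatic classes. Hsp90aa1, the inducible cytosolic isoform, stood at 3734 CPM in WT and 4155 CPM in KO germ-like cells. In the somatic classes it stood at 1052 and 1205 CPM (granulosa-like), 1103 and 1383 CPM (theca-like) and 1391 and 1425 CPM (epithelia-like). Germ-like cells were thus the highest of the 4 classes in both libraries, 3.55-fold above granulosa-like cells in WT and 3.45-fold in KO. Hsp90ab1, the constitutive isoform, was instead lowest in germ-like cells. It stood at 1555 CPM in WT and 1565 CPM in KO germ-like cells, against 3262 and 3287 CPM in granulosa-like, 3138 and 3126 CPM in theca-like, and 4630 and 4754 CPM in epithelia-like cells. Granulosa-like cells were 2.10-fold above germ-like cells in both libraries, and epithelia-like cells were the highest, 2.98-fold above germ-like cells in WT and 3.04-fold in KO.

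**Figure D1:**
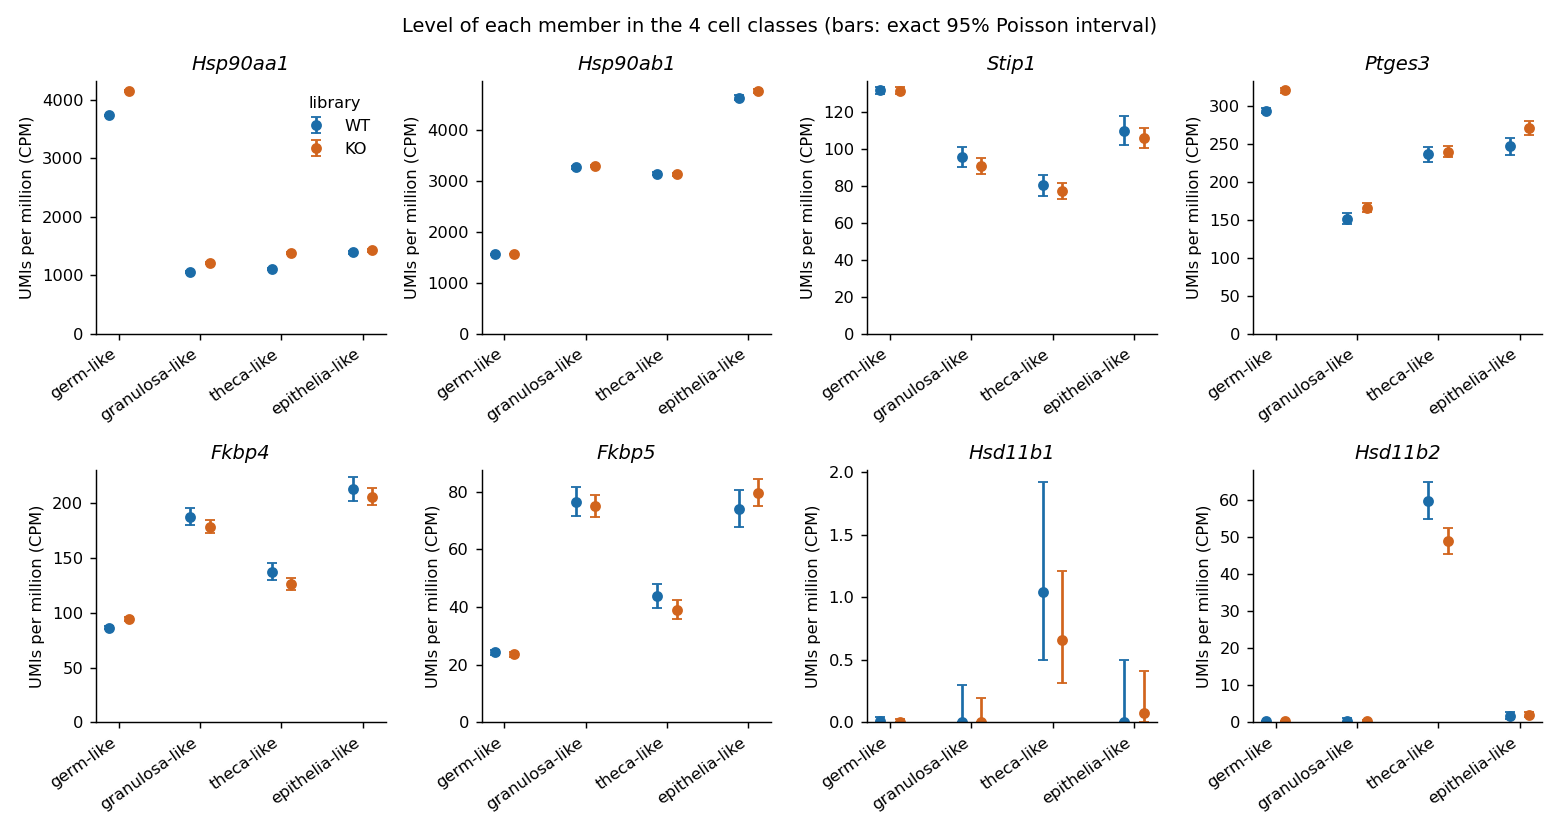
CPM (vertical axis from 0) of each of the 8 genes in the 4 large classes, with WT in blue, KO in orange and bars for the exact 95% Poisson interval. Hsp90aa1 is highest in germ-like cells (3734 and 4155 CPM), Hsp90ab1, Fkbp4 and Fkbp5 are lowest there, and Hsd11b2 stands out in theca-like cells (59.8 and 48.9 CPM).

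The exchange was visible cell by cell. Among germ-like cells with at least 10 UMIs of the pair, Hsp90aa1 made up a median of 72.0% of the pair's UMIs in WT and 74.4% in KO. The medians were 19.5% and 18.5% in granulosa-like cells, 16.8% and 16.7% in theca-like cells, and 18.2% and 18.3% in epithelia-like cells. Hsp90aa1 was the major transcript in 96.8% of WT and 97.1% of KO germ-like cells. The same held for 3.91% and 7.13% of granulosa-like cells, 5.15% and 11.6% of theca-like cells, and 1.25% and 2.21% of epithelia-like cells. The sum of both genes varied less than either gene. It was 5289 and 5719 CPM in germ-like cells, 4315 and 4493 CPM in granulosa-like cells, 4242 and 4508 CPM in theca-like cells, and 6021 and 6179 CPM in epithelia-like cells.

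**Figure D2:**
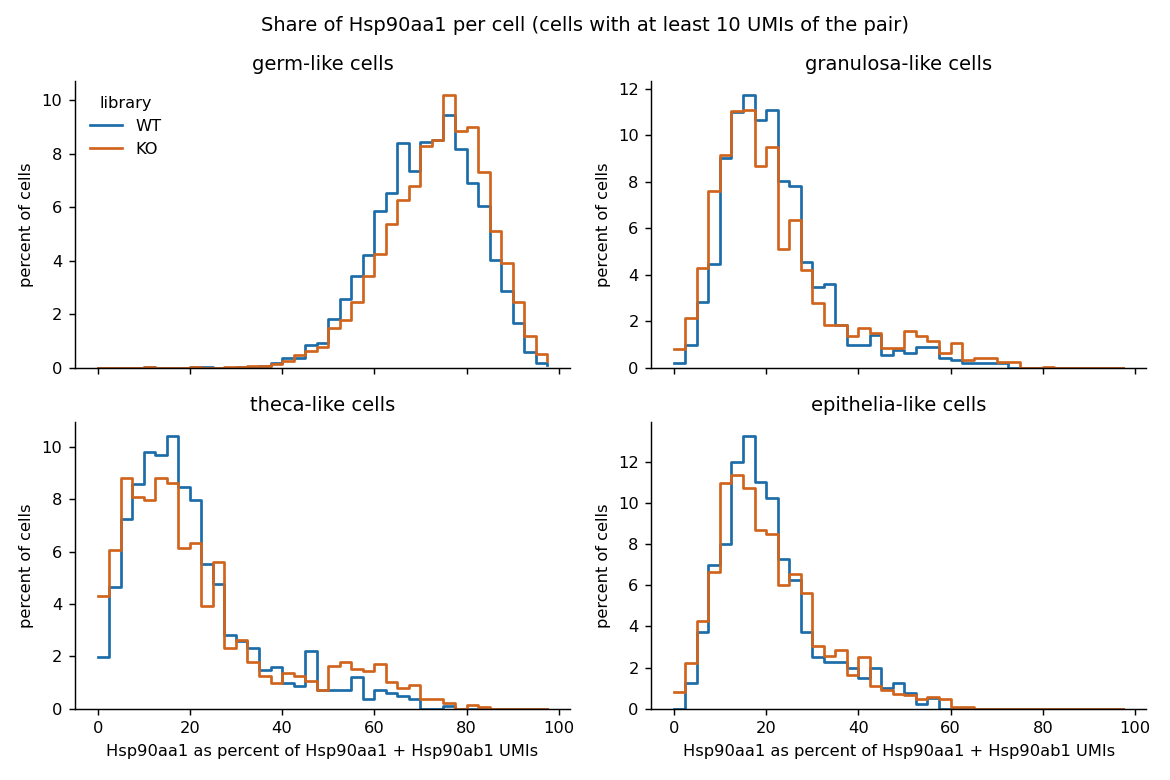
Distribution over cells of Hsp90aa1 as a percentage of Hsp90aa1 plus Hsp90ab1 UMIs (horizontal axis) against the percentage of cells of that class and library (vertical axis), for WT (blue) and KO (orange). Germ-like cells centre on 72.0% (WT) and 74.4% (KO), while the 3 somatic classes centre between 16.7% and 19.5%.

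Germ markers were counted in the somatic classes too. In each of the 3 large somatic classes their sum and the Hsp90aa1 level were both higher in KO than in WT, but across the classes the order differed, with the lowest germ marker sum and the highest Hsp90aa1 level in epithelia-like cells. The 8 germ markers summed to 8078 CPM in WT and 8787 CPM in KO germ-like cells. They summed to 809 and 1427 CPM in granulosa-like, 1232 and 2087 CPM in theca-like, and 771 and 1012 CPM in epithelia-like cells, and none of the 8 was at 0. Single markers ranged widely, in WT granulosa-like cells from 9.22% to 737% of the germ-like level. The median germ marker stood at 10.1% (granulosa-like), 15.6% (theca-like) and 9.73% (epithelia-like) of its germ level in WT, and at 16.2%, 23.5% and 11.7% in KO. At those rates germ RNA would carry 378, 584 and 363 CPM of Hsp90aa1 into the 3 WT classes and 672, 978 and 484 CPM into the 3 KO classes. The part of this RNA in the somatic levels was not tested. In the other direction, theca markers in germ-like cells stood at a median of 0.392% (WT) and 0.592% (KO) of their theca-like level.

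Among the 4 co-chaperones, Stip1 and Ptges3 were highest in germ-like cells, as Hsp90aa1 was, and Fkbp4 and Fkbp5 were lowest there, as Hsp90ab1 was. The germ excess of Stip1 and Ptges3 was smaller than that of Hsp90aa1. Over epithelia-like cells the log2 ratios were 0.26 and 0.32 (Stip1), 0.25 and 0.24 (Ptges3) and 1.42 and 1.54 (Hsp90aa1) in WT and KO. Stip1, the HSP70-HSP90 adaptor, was highest in germ-like cells, at 132 CPM in both WT and KO. It stood at 95.4 and 90.9 CPM in granulosa-like, 80.3 and 77.0 CPM in theca-like, and 110 and 106 CPM in epithelia-like cells. Ptges3, which encodes p23, was also highest in germ-like cells, at 294 CPM in WT and 321 CPM in KO. Against epithelia-like cells that order was not firm, since the WT log2 ratio of 0.25 became -0.15 once cells with markers of another class were left out. That step removed 86.75% of the WT epithelia-like cells. The lowest Ptges3 levels were in granulosa-like cells (152 and 166 CPM), with theca-like cells (236 and 240 CPM) and epithelia-like cells (247 and 271 CPM) between. The intervals of the last pair overlapped in WT and not in KO. Fkbp4 was instead lowest in germ-like cells, with 86.3 CPM in WT and 94.2 CPM in KO. It reached 138 and 126 CPM in theca-like, 188 and 178 CPM in granulosa-like, and 213 and 206 CPM in epithelia-like cells. Fkbp5 was the lowest of the 4 co-chaperones in every large class. It stood at 24.3 and 23.6 CPM in germ-like cells, 43.6 and 39.0 CPM in theca-like, 76.5 and 74.97 CPM in granulosa-like, and 73.9 and 79.5 CPM in epithelia-like cells, and the intervals of the last pair of classes overlapped in both libraries. Because 1 UMI stands for 1 captured 3′ end whatever the length of the transcript, these levels were not divided by length. How far capture and read mapping differ between genes was not tested, so levels of different genes are compared as UMIs only.

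Counted against a size limit of 0.5 on the log2 scale, for genes whose UMIs on both sides of the ratio came to at least 100, most members differed between germ-like and somatic cells, as did most genes. Against granulosa-like cells 5 of 6 members were past the limit in WT, where 77.8% of all genes were, and 6 of 6 in KO (76.8%). The log2 ratios, germ-like over granulosa-like, were 1.83 and 1.79 for Hsp90aa1, -1.07 and -1.07 for Hsp90ab1, and 0.46 and 0.53 for Stip1 (WT and KO). They were 0.95 and 0.95 for Ptges3, -1.12 and -0.92 for Fkbp4, and -1.65 and -1.67 for Fkbp5. Against theca-like cells 6 of 7 members were past the limit in WT (76.1% of all genes) and 5 of 7 in KO (73.6%). Against epithelia-like cells the counts were 4 of 6 in each library (77.6% and 77.3%). These shares are near those of all genes, so the number of members that differ is not particular to them. Hsp90aa1 was on the germ side and Hsp90ab1 and Fkbp5 on the somatic side of the limit in all 6 comparisons, and Fkbp4 was on the somatic side in all but the KO theca-like one (-0.42).

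Within the germ line, the members were not uniform. The 7 germ-like clusters were ordered by a list of 8 premeiotic genes, among them Pou5f1, Sox2 and Dppa3. Cluster 9 (335 WT and 656 KO cells) stood first, with 1349 and 1326 summed CPM of that list against 157 to 566 CPM in the other 6 clusters. Its leading genes included Rhox5, Stra8, Rec8 and Dppa3, and also the histone genes Hist1h1b, Hist1h2ap and Hist1h2ae. It was first as well for a list of meiotic entry genes, among them Stra8 and Rec8, at 2147 and 2085 CPM. Cluster 7 followed there at 1533 and 1439 CPM. Which of these traits the member levels go with was not tested. Cluster 9 had the highest germ-line level of Hsp90ab1, at 2699 CPM in WT and 2925 CPM in KO, where the other clusters together had 1466 and 1428 CPM. Hsp90aa1 differed little, at 3827 and 4133 CPM against 3727 and 4157 CPM. The median share of Hsp90aa1 per cell was therefore 60.0% in cluster 9 in both libraries, and 69.7% to 79.5% in the other 6 clusters. Fkbp4 had the same pattern as Hsp90ab1, with 208 CPM in WT and 231 CPM in KO cells of cluster 9 against 76.9 and 80.5 CPM elsewhere. Cluster 7, next in the order and led by Stra8, was intermediate for Fkbp4, at 111 and 122 CPM. Stip1 stood at 174 and 180 CPM in cluster 9 against 128 and 127 CPM, and Ptges3 at 393 and 439 CPM against 286 and 309 CPM. Fkbp5 lay at 20.2 to 28.4 CPM over all 7 clusters and both libraries, with no order along the premeiotic list.

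**Figure D3:**
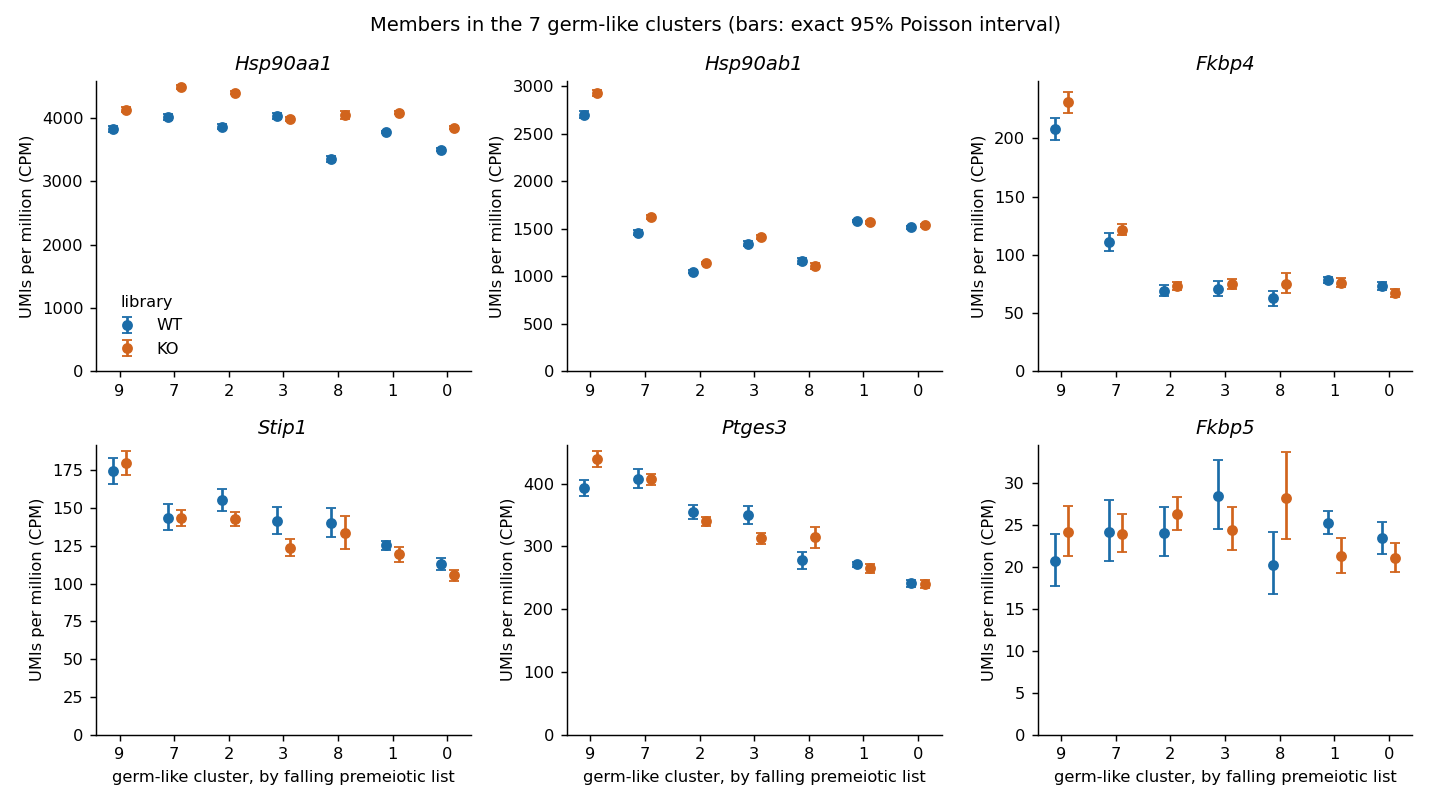
CPM (vertical axis from 0) of 6 members in the 7 germ-like clusters, placed along the horizontal axis by falling premeiotic gene list, for WT (blue) and KO (orange) with exact 95% Poisson intervals. Hsp90ab1 and Fkbp4 are highest in cluster 9 (2699 and 2925 CPM, 208 and 231 CPM), while Fkbp5 stays between 20.2 and 28.4 CPM.

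Expressed as log2 ratios of cluster 9 over the other germ-like cells, Fkbp4 was at 1.43 in WT and 1.52 in KO and Hsp90ab1 at 0.88 and 1.03. Ptges3 was at 0.46 and 0.51, Stip1 at 0.44 and 0.50, Hsp90aa1 at 0.04 and -0.01, and Fkbp5 at -0.25 and 0.04. The size limit was passed by 2 of 6 members in WT, where 53.6% of all genes passed it, and by 4 of 6 in KO (51.7%). Members past the limit were all higher in cluster 9, as were 23.6% of all genes in WT and 27.3% in KO. Of 14 other HSP90 co-chaperones, 5 were higher past the limit in both libraries: Ahsa1, Fkbpl, Unc45a, Stub1 and Nudc. Ahsa1, the activator of the HSP90 ATPase, stood at 77.5 against 46.4 CPM in WT and 95.6 against 42.8 CPM in KO. Nudc stood at 290 against 124 CPM and 329 against 129 CPM. In WT 3 co-chaperones were lower past the limit (Cdc37l1, Sugt1 and Tomm34), and in KO none of the 14 was. Of all genes, 30% in WT and 24.4% in KO were lower past it. Hsp90b1, the endoplasmic reticulum form of HSP90, lay on the other side, at -0.44 in WT and, past the limit, -0.54 in KO. The counts rest on few genes and are not read as particular to the members or the co-chaperones. Since these cells were grouped by their expression, cluster 9 against the rest is a description and not a test.

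Between genotypes the members differed little, as did most genes. None of 6 members tested in germ-like cells passed the size limit, where 7.81% of all genes did. The counts were 0 of 6 in granulosa-like (6.76%), 0 of 7 in theca-like (6.9%) and 0 of 6 in epithelia-like cells (3.74%). Beside shares this low, counts of 0 among so few genes are not particular to the members, here or in the clusters below. In germ-like cells the log2 ratios, KO over WT, were 0.15 for Hsp90aa1 (95% interval 0.15 to 0.16), 0.01 for Hsp90ab1 (-0.00 to 0.02) and -0.00 for Stip1 (-0.03 to 0.03). They were 0.13 for Ptges3 (0.11 to 0.15), 0.13 for Fkbp4 (0.09 to 0.16) and -0.04 for Fkbp5 (-0.11 to 0.04). For comparison, the middle 95% of 13824 genes ran from -0.66 to 0.49. The libraries placed different shares of their germ-like cells in the 7 clusters, for example 35.7% of WT and 10.2% of KO in cluster 1, so the ratios were also taken within clusters. The count stayed at 0 of 6 in each, where 5.3% (cluster 0), 5.5% (cluster 1), 9.33% (cluster 2), 13.1% (cluster 3), 7.9% (cluster 7), 4.71% (cluster 8) and 5.62% (cluster 9) of genes passed the limit. Hsp90aa1 was above 0 in 6 of the 7 clusters and ranged from -0.02 in cluster 3 to 0.28 in cluster 8, which was led by mitochondrial genes. Ptges3 and Fkbp4 did not keep 1 side. Ptges3 ran from -0.16 in cluster 3 to 0.18 in cluster 8, and in the large clusters 0 and 1 it was at -0.01 and -0.03. Fkbp4 was at -0.13 in cluster 0 (-0.22 to -0.03) and 0.15 in cluster 9 (0.07 to 0.24).

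**Figure D4:**
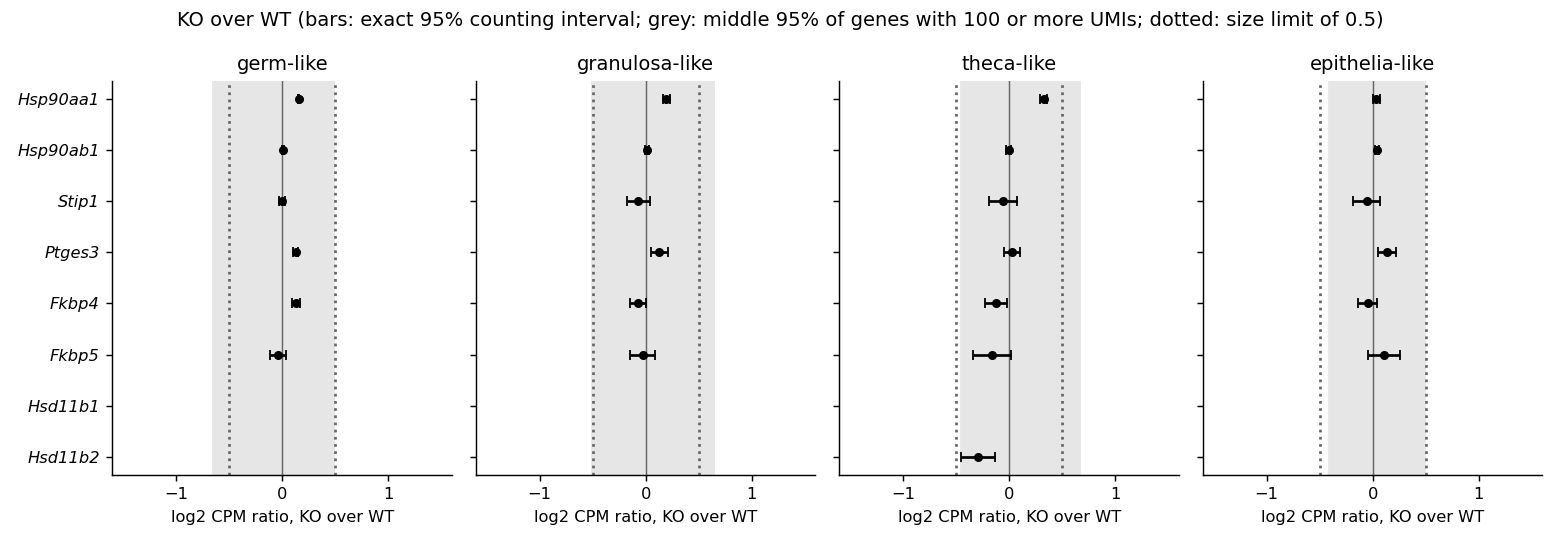
log2 CPM ratio of KO over WT (horizontal axis) for each member with at least 100 UMIs in each large class, with exact 95% counting intervals, the middle 95% of all tested genes in grey and the size limit of 0.5 as dotted lines. Every member lies inside the limit, the farthest being Hsp90aa1 (0.33) and Hsd11b2 (-0.29) in theca-like cells.

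Fkbp5 is a classical glucocorticoid-induced gene, and its level in the 4 classes was close between libraries. Its log2 ratios, KO over WT, were -0.03 for granulosa-like cells (-0.15 to 0.09), -0.16 for theca-like cells (-0.35 to 0.02) and 0.11 for epithelia-like cells (-0.04 to 0.26), besides the -0.04 in germ-like cells. All 4 intervals included 0. Within germ-like clusters it ran from -0.25 in cluster 1 (-0.41 to -0.09) to 0.48 in cluster 8 (0.10 to 0.86), and the intervals of the other 5 clusters included 0. Hsp90ab1 lay between -0.01 and 0.04 in the 4 classes. Stip1 lay between -0.07 and -0.00, and each of its intervals included 0. Ptges3 was at 0.13 (granulosa-like), 0.02 (theca-like) and 0.14 (epithelia-like). Fkbp4 was above 0 in germ-like cells and at -0.07 (granulosa-like), -0.12 (theca-like) and -0.05 (epithelia-like) in the somatic classes. Of the somatic intervals, that of theca-like cells (-0.23 to -0.02) did not reach 0.

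Among the 4 large classes, Hsp90aa1 in theca-like cells had the largest difference of any member, and its direction differed between the theca-like clusters. For the class as a whole the log2 ratio was 0.33 (0.29 to 0.36), against 0.20 in granulosa-like and 0.03 in epithelia-like cells. In cluster 5 (639 WT and 1323 KO cells) Hsp90aa1 stood at 898 CPM in WT and 646 CPM in KO, a log2 ratio of -0.48 (-0.53 to -0.42). In cluster 10 (178 WT and 565 KO cells) it stood at 1614 CPM in WT and 2262 CPM in KO, a log2 ratio of 0.49 (0.44 to 0.54). Neither passed the limit, which 6.31% of genes did in cluster 5 and 20% in cluster 10. Stip1 in cluster 5 was at -0.29 (-0.47 to -0.11). In the granulosa-like clusters 4 and 11 (6.73% and 7.07% of genes past the limit) Hsp90aa1 was at 0.27 and 0.14. The KO share of the class in cluster 10 was 29.9%, against 21.8% in WT. Scrublet, a doublet caller, marked 34.3% of the cells of cluster 10 and 3.47% of those of cluster 5. A finer clustering split off 53 WT and 298 KO cells whose leading genes within the class were the meiotic genes Smc1b, Sycp3 and Sycp1, of which 54.7% and 69.8% were marked as doublets and where Hsp90aa1 stood at 2552 and 2831 CPM. With marked doublets removed the class ratio was -0.02, and in granulosa-like cells it was -0.20 in place of 0.20 (0.16 to 0.23). Without the cells that carried markers of another class, it was -0.03 in theca-like cells. The cells left out were 58.4% of WT and 62.4% of KO theca-like cells, so this value rests on the smaller part of the class.

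Hsd11b2, which inactivates corticosterone, was a transcript of theca-like cells. It had 571 UMIs (59.8 CPM, 55.0 to 64.9) in WT and 744 UMIs (48.9 CPM, 45.4 to 52.5) in KO theca-like cells, which held 89.8% and 89.6% of all its UMIs in kept cells. Germ-like cells had 36 UMIs in WT and 45 in KO, or 0.298 and 0.369 CPM, although they were far more numerous. Theca-like cells were 201-fold above germ-like cells in WT and 132-fold in KO. Granulosa-like cells had 6 and 5 UMIs (0.490 and 0.262 CPM), and epithelia-like cells 12 and 27 UMIs (1.63 and 2.01 CPM). Perivascular-like cells had 9 UMIs in 25 WT cells and 6 UMIs in 64 KO cells (30.2 and 10.1 CPM), and endothelia-like cells 2 UMIs in each library. A UMI was seen in 42.1% of WT and 28.7% of KO theca-like cells, at median depths of 10074 and 6481 UMIs. With every cell thinned to 3000 UMIs, which left out no cell, the shares were 16.5% and 15.4%. In germ-like cells, taken as the class lacking the gene, the thinned shares were 0.0441% and 0.108%. There the theca markers stood at 0.392% and 0.592% of their theca-like level, and Hsd11b2 at 0.498% and 0.756%.

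**Figure D5:**
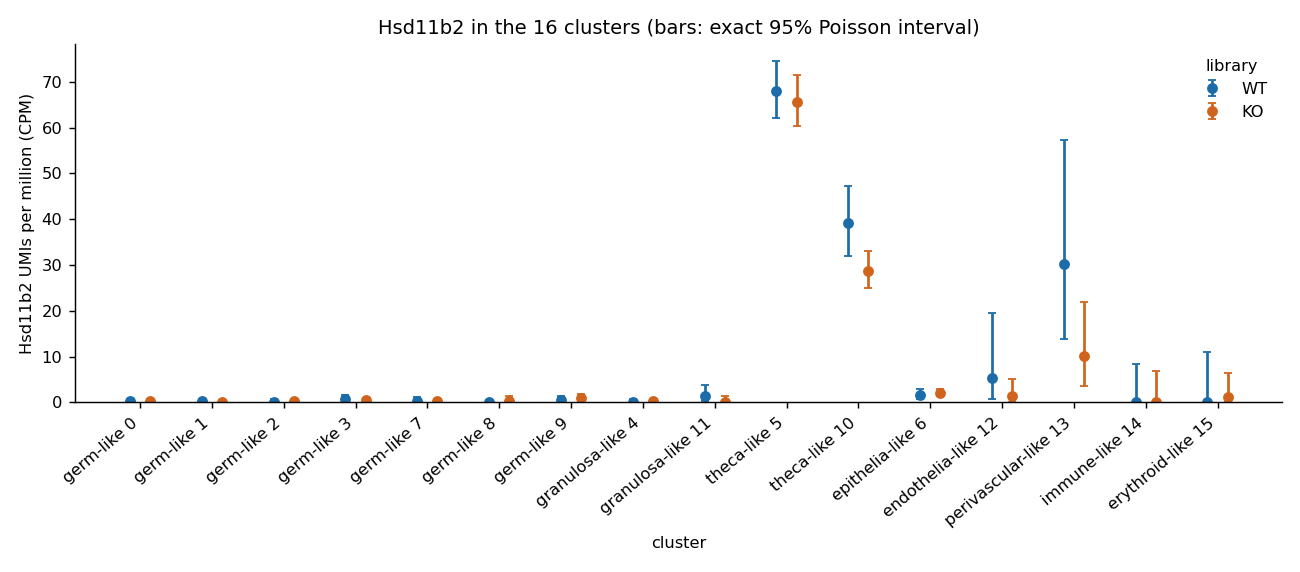
Hsd11b2 CPM (vertical axis from 0) in each of the 16 clusters (horizontal axis, by class and cluster number), for WT (blue) and KO (orange) with exact 95% Poisson intervals. Theca-like cluster 5 (68.1 and 65.7 CPM) and cluster 10 (39.1 and 28.8 CPM) stand above the germ-like, granulosa-like and epithelia-like clusters, and the wide perivascular-like intervals rest on 9 and 6 UMIs.

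Between genotypes, Hsd11b2 in theca-like cells had a log2 ratio of -0.29 (-0.45 to -0.13). In cluster 5 it stood at 68.1 CPM in WT and 65.7 CPM in KO, a log2 ratio of -0.05 (-0.23 to 0.13). In cluster 10, where doublets were concentrated, it stood at 39.1 and 28.8 CPM, a log2 ratio of -0.44 (-0.79 to -0.09). With cells carrying markers of another class removed, the ratio of the class was 0.15. That step left out 58.4% of WT and 62.4% of KO theca-like cells. By the finer clustering, Hsd11b2 was at 68.2 and 66.0 CPM in the main theca-like cluster and at 43.6 and 36.2 CPM in a cycling one led by Ube2c and histone genes. Outside the theca-like class, a small fine cluster of 42 WT and 86 KO cells that received no class name held 6 and 15 UMIs (10.4 and 19.7 CPM). The epithelia-like fine cluster stood at 0.883 and 0.947 CPM.

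Hsd11b1, which regenerates corticosterone, was barely detected. It had 14 UMIs in the WT and 11 in the KO library over all kept cells. Of these, 10 in each library lay in theca-like cells (1.05 and 0.657 CPM), each in a cell of its own in WT and in 9 cells in KO. Immune-like cells had 3 UMIs in WT and 0 in KO. Germ-like cells had 1 UMI in WT and 0 in KO, and a count of 0 in KO allows up to 0.0246 CPM. Granulosa-like cells had 0 UMIs in both libraries, which allows up to 0.245 CPM in WT and 0.157 CPM in KO. Against granulosa-like cells, theca-like cells had 3 of 7 members past the limit in each library (41.4% of genes in WT and 40.3% in KO), and against epithelia-like cells 4 of 7 (33.4% and 35.3%), Hsd11b2 among them each time. Hsd11b2 was above Hsd11b1 in theca-like cells by 571 to 10 UMIs in WT and 744 to 10 in KO. Genes for corticosteroid synthesis were sparse in theca-like cells too: none of 6 reached 100 UMIs over both libraries there. Adrenal and other steroidogenic markers summed to 5.02 CPM in WT and 5.32 CPM in KO theca-like cells, with 1 of 6 at 0 in each, against 66.4 and 56.6 CPM in granulosa-like cells.

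In the 4 small classes the counts were low. Hsp90aa1 stood at 744 CPM in 30 WT and 1578 CPM in 136 KO endothelia-like cells, a log2 ratio of 1.08 (0.90 to 1.27). Together with Ptges3 (0.58) it made 2 of 5 members past the limit, where 28.2% of genes were. The germ markers stood at a median of 2.61% of their germ level in WT and 23.1% in KO endothelia-like cells, and the part of this difference was not tested. In immune-like cells Hsp90aa1 was at 0.74 (1 of 3 members, 25.1% of genes), with germ markers at 4.50% and 15.1%. The counts were 0 of 4 in perivascular-like (12.4%) and 0 of 3 in erythroid-like cells (30.6%). Erythroid-like cells had a high median share of Hsp90aa1, at 69.7% in 14 WT and 68.8% in 53 KO cells, and germ markers there stood at 40.6% and 53.3% of their germ level.

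The other genes of the pathway, listed by role, were taken through the same comparison between genotypes. Of 14 other HSP90 co-chaperones, all tested in germ-like cells and 13 in each somatic class, none passed the size limit, with log2 ratios from -0.34 to 0.19. None of 7 HSP70 loading genes and none of 5 receptor import genes did either. Past the limit were Nr3c1 itself, in all 4 classes, and 5 other genes in 1 class each, where 7.81% (germ-like), 6.76% (granulosa-like), 6.9% (theca-like) and 3.74% (epithelia-like) of all genes were. So few calls are not particular to these lists, and the genes are named as descriptions. Abcb1a, which encodes an efflux pump that exports glucocorticoids, was at 8.86 CPM in WT and 3.77 CPM in KO germ-like cells, a log2 ratio of -1.23 (-1.39 to -1.07). Its paralog Abcb1b was at -0.77 there on 83 and 49 UMIs. Within germ-like clusters Abcb1a was at -1.16 in cluster 0 (-1.45 to -0.87), at -0.9996 in cluster 1 (-1.32 to -0.69) and, short of the limit, at -0.498 in cluster 2 (-0.98 to -0.00), and in clusters 3, 7, 8 and 9 it had fewer than 100 UMIs. Star, the cholesterol importer of steroid synthesis, was at -0.96 in granulosa-like cells. The heat-inducible Hspa1a was at -0.65 in theca-like cells and Hspa1b at 0.62 in epithelia-like cells.

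Between germ-like and granulosa-like cells, 77.8% of all genes in WT and 76.8% in KO were past the limit, and the counts of these lists are read against those shares. Of the 2 other HSP90 family genes, Hsp90b1 and Trap1, the mitochondrial form, both were on the germ side, at log2 ratios of 1.34 and 1.21 in WT and 1.25 and 1.11 in KO. Of 14 co-chaperones, 2 in WT and 1 in KO were higher in germ-like cells past the limit and 5 in each library were lower, a smaller share than that of all genes. Ppp5c, a phosphatase of the HSP90 complex, was at 1.06 and 0.98, while Unc45a was at -3.25 and -3.22 and Stub1, a ubiquitin ligase that acts on HSP90 clients, at -1.74 and -1.75. The heat-inducible genes were listed because the ovaries were dissociated at 37 °C, and the part of that step was not tested. Of 8 genes, 6 in WT and 4 in KO were lower in germ-like cells past the limit, among them Hspb1 (-6.43 and -6.40), Hspa1a (-4.91 and -4.94) and Bag3 (-4.45 and -4.62), and 2 were higher in each, Hspd1 (0.79 and 0.75) and Hsph1 (0.61 and 0.54). In either direction that made 8 of 8 in WT and 6 of 8 in KO, beside the 77.8% and 76.8% of all genes. Their summed level was 1219 and 1335 CPM (germ-like), 1590 and 1626 CPM (granulosa-like), 1119 and 1148 CPM (theca-like), and 1802 and 1801 CPM (epithelia-like).

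Across 28 points (clusters with at least 50 cells in a library), the genes whose log2(CPM + 10) followed each member most closely were found among 10861 genes, as a description with no test, since the points of a library share its depth and its carried-over RNA. Nearest to Hsp90aa1 were Dnajc2, Slc25a31 and Hat1, each at r = 0.986. Nearest to Hsp90ab1 were Phb2 (0.971), Apex1 (0.970) and Stub1 (0.964). For Stip1 they were Rassf7 (0.9497), Uqcr11 (0.920) and Cacul1 (0.916), and for Ptges3 Mrpl18 (0.952), Atp5g2 (0.941) and Banf1 (0.931). For Fkbp4 they were Mrps36 (0.957), Aldh7a1 (0.955) and Ctps2 (0.913), and for Fkbp5 Crip3 (0.961), Pam (0.949) and Gxylt2 (0.946). Hsd11b2 was followed by Gm266 (0.989), Itih5 (0.986) and Cadm4 (0.984). Among the members themselves, Hsp90aa1 ran against Hsp90ab1 (r = -0.786) and with Stip1 (0.834), and Hsp90ab1 ran with Fkbp4 (0.848) and Fkbp5 (0.737).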

How the data were processed

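UMI counts per gene and cell barcode, deposited by the authors, are whole numbers without normalization. The authors used Cell Ranger (3.0.2 per the file headers) and mm10, per the labels. The tables held 168483330 UMIs in WT and 186117981 in KO. The members and lists were chosen with earlier results of these data known.

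Cells were kept by the study's limits, which differ by library: 1500 to 6500 genes and 5500 to 40000 UMIs (WT), 1200 to 5500 genes and 3000 to 30000 UMIs (KO), and under 10% mitochondrial UMIs. Scanpy 1.11.5 clustered cells without the members (2000 variable genes, 30 components, 20 neighbours, Leiden resolution 0.5). A cluster was first placed in the class whose markers had the highest mean relative level. It was named "X-like" when at least 3 of those markers passed and no other class had more markers among its leading genes. A marker passed when it was detected in at least 10% of the cells and stood more than 2-fold above clusters of other classes. Doublets stayed in, and removal of those marked by Scrublet (2.60% of WT and 6.60% of KO cells) was an alternative. UMIs were summed per class and library and given as CPM with exact Poisson intervals. Log2 ratios had exact conditional intervals and were counted past 0.5 among genes with at least 100 UMIs. Both steps were run on simulated Poisson counts, the model that the intervals assume. That check therefore does not bear on variation between libraries or cells, or on carried-over RNA. Every member was named in the 4 large classes. Of each pathway list, the extreme genes and any gene past the limit could be named.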

Additional observations from a re-analysis of the deposited data

Results flagged for a closer look

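Fkbp4, KO over WT, lay on opposite sides of 0 in 2 cell classes, with counting intervals that did not reach 0 in either. The log2 ratio was 0.13 in germ-like cells and -0.12 in theca-like cells. The difference between the classes was not tested, since each genotype had 1 library. Within germ-like clusters the ratio ran from -0.13 in cluster 0 to 0.27 in cluster 8. Both class values were inside the size limit of 0.5.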

How the results depend on the processing

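No member value that was past the size limit in the main run changed sign under an alternative. Values inside the limit, among them every KO over WT value in the 4 large classes, were not counted here, and some did change sign. Of 615 values recomputed under alternatives for 75 member values, 412 moved by less than their counting interval and 203 by more. Of 55 recomputed counts of members past the limit, 50 stayed within 1.5 times the main count. For KO over WT (0 of 25), all barcodes with at least 1000 UMIs placed by marker lists gave 1 and no minimum of UMIs gave 4. With a size limit of 1, the count was 7 in place of 11 for germ-like over granulosa-like cells, 5 in place of 11 for germ-like over theca-like cells, and 3 in place of 6 for germ-like cluster 9. The stricter limit and the low counts let in account for the last 4 by construction, and for the marker lists the cause was not tested. Hsp90aa1 in theca-like cells, KO over WT, ran from -0.48 to 0.49, with the lowest value from leaving out the doublet-rich cluster 10, an alternative chosen after seeing the data, as were those for cluster 9. Hsp90aa1 also changed side in granulosa-like (-0.20 to 0.21) and epithelia-like cells (-0.29 to 0.04), as did Hsd11b2 in theca-like cells (-0.43 to 0.15), while Hsp90aa1 in germ-like cells stayed at 0.13 to 0.16. Ptges3, germ-like over epithelia-like cells in WT, ran from -0.15 to 0.29, and Fkbp5 in KO cluster 9 over other germ-like cells was at -0.62 in thinned cells in place of 0.04. Fkbp4 ran from 0.06 to 0.16 in germ-like and from -0.15 to -0.00 in theca-like cells. No paired analysis was possible because each genotype had 1 library. Depth limits Hsd11b1 everywhere and Hsd11b2 outside theca-like cells.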
